A study of Arabidopsis thaliana with 6 samples.

Results

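The transcripts of whole, fertilised wild-type flowers of Arabidopsis thaliana were described from 3 arrays, chosen by their genotype label out of the 6 arrays of the series. The other 3 arrays held fertilised flowers of atnaod, a T-DNA mutant of the gene for N-acetylornithine deacetylase. They were used here only where slides were compared and where loci that varied in wild type were looked up in atnaod. All flowers were at stage 15 and came from plants kept at 25 °C with a 16 h day and an 8 h night. Each sample was an independent replicate that pooled about 100 flowers from 17 to 20 plants, so the values of an array are those of a pool of organs and plants. RNA was labelled with Cy3 and each sample was hybridised to 1 array of 43603 probes, which stand for 29030 loci with a locus code. All 29030 loci are described below.

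A stage 15 flower is open and past pollination: the stigma has extended above the long anthers, mature pollen has been shed, and pollen tubes have entered the ovary. Sepals and the young carpel wall are green and photosynthetic, whereas petals, stamens and nectaries are close to the end of their life. Ovules hold gametes or very early seeds, long before storage proteins are laid down.

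The level of a locus is its log2 processed intensity minus the 75th percentile of the same array, so that 0 is the 75th percentile of all probes. Where 3 levels follow each other, they belong to wild-type arrays 1, 2 and 3. A locus with several probes was represented by its brightest probe. Brightness depends on the probe as well as on the transcript, so the order of loci is a description of the arrays and was not tested. Levels also depended on the processing: of the 343 list members, 277 moved by over 1 SD of the replicates with the mean over probes, and 228 with normexp or with the deposited values. Among 7320 loci with several probes, the brightest and dimmest probe differed by a median of 1.92 on the log2 scale, and in 29.1% of them by over 10-fold. In a pool of whole flowers, fewer cells of a type and less RNA per cell cannot be told apart.

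The 75th percentile of intensity was 2998, 2603 and 1311, and 73.0% to 76.1% of the spots were well above background by the scanner software. Of 153 negative control spots, 4, 3 and 0 were well above background, and no spot was saturated. Across the 21360 loci whose represented probe was above background on all 3 arrays, Pearson's r between arrays was 0.991 to 0.995, computed over loci, which are not independent replicates. Arrays 1 and 2 lay on 1 slide and array 3 on another, scanned at another time, so that slide, scan and replicate number 3 cannot be told apart. The levels of the 10 spike-in RNAs were 0.50 to 1.36 higher on array 3 than on the mean of arrays 1 and 2. Levels are relative to the 75th percentile, which was lowest on array 3 (1311). Higher levels there do not by themselves mean brighter spike-in spots. With 3 arrays, precision is limited by their number.

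Most of the genome's loci gave a signal in the flower. Of the 29030 loci, 21370 (73.6%) had a probe well above background on all 3 arrays, 1365 (4.70%) on 1 or 2 arrays, and 6295 (21.7%) on none. Mean levels ran from -8.81 to 7.49 with a median of -1.77. The signal was concentrated in few loci: the 10 brightest held 2.80%, 3.13% and 3.66% of the summed intensity, and the 100 brightest held 15.4%, 16.5% and 18.3%. The brightest 5.0% of loci, 1452 in number, began at a level of 2.59 (6.01-fold over the 75th percentile) and held 54.2% to 57.6%.

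The kind of locus went with its detection. Of 26235 protein-coding loci, 17.3% were not above background on any array, against 21.7% of all loci. The share was 81.2% among 1238 pseudogenes, 56.3% among 728 transcribed pseudogenes and 55.9% among 68 microRNA loci. Among 302 nuclear loci of the array that are not in the RefSeq table it was 68.5%. Loci of the chloroplast genome stood at the other end: 54 of 66 were among the brightest 5.0% and 0 of 66 were undetected. Of 67 mitochondrial loci, 5 were among the brightest and 9 were undetected. Undetected loci were also shorter, with a median gene length of 1333 bp, against 2082 bp over all loci with a length.

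Photosynthesis and RNA of the ribosome filled the top of the ranking. The 25 brightest loci held 10 of the 30 listed nuclear photosynthesis genes, 5 chloroplast loci, 3 nuclear ribosomal RNA loci and 1 mitochondrial locus. The annotation used here gave no kind for chloroplast and mitochondrial loci, so ribosomal RNA among them was not counted. The brightest locus, the ribosomal RNA locus AT2G01010, stood at 7.23, 7.50 and 7.73, and the ribosomal RNA loci AT3G41768 and AT2G01020 both averaged 7.20. The mitochondrial locus ATMG00020 averaged 7.34, although its 3 probes differed by 8.68 on the log2 scale. The chloroplast loci were ATCG01210 at a mean of 7.16, ATCG00950 at 7.15, ATCG00340 at 7.07, ATCG00020 at 6.99 and ATCG00040 at 6.64.

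CAB1 (also called LHCB1.3), which encodes a light-harvesting chlorophyll-binding protein of photosystem II, was the brightest protein-coding locus at 7.14, 7.25 and 7.45. The brightest of the small-subunit genes of Rubisco, RBCS1A, followed at 6.97, 7.19 and 7.51. The genes RBCS3B (6.87, 7.13 and 7.34), RBCS1B (6.91, 7.13 and 7.24) and RBCS2B (6.83, 6.99 and 7.22) are near-identical copies, as are CAB1, CAB2 (6.54, 6.81 and 6.99) and CAB3 (6.43, 6.62 and 6.93). Probes of such copies can read each other's transcripts, so these values are uncertain for each copy. LHCB2.2, another light-harvesting gene, stood at 6.94, 7.10 and 7.23. The probes of LHCB2.2 differed by 6.86 on the log2 scale, those of CAB1 by 6.25 and those of CAB2 by 5.57. Those of CAB3 differed by 1.13, and those of the 4 RBCS genes by 0.65 to 1.32.

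Subunits of the photosystems completed this group. PSBO1, of the oxygen-evolving complex, had levels of 6.83, 6.89 and 7.28. The antenna gene of photosystem I, LHCA1, had 6.85, 6.94 and 7.02. PSBR, another photosystem II subunit, stood at 6.31, 6.61 and 6.80, and DRT112, a plastocyanin that carries electrons between the photosystems, at 6.39, 6.62 and 6.82. All 30 listed nuclear photosynthesis genes were detected on all 3 arrays, against 73.6% of all loci, and 29 were among the brightest 5.0%. The exception, LHCB2.1, averaged 0.56, a level that can reflect its probes as well as its transcript. The median of the list was 6.0, against -1.77 over all loci.

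The other loci with a symbol among the 25 brightest were VSP1, UBQ10 and MT2B. VSP1, a vegetative storage protein with phosphatase activity that jasmonate induces, stood at 6.61, 6.87 and 6.78. The polyubiquitin gene UBQ10, often used as a reference gene, had levels of 6.42, 6.60 and 6.95. MT2B, a metallothionein that binds copper, had 6.21, 6.61 and 7.04. AT1G07590, a protein-coding locus without a symbol in the table used here, completed the 25 at a mean of 6.80, with a pair of probes that differed by 8.55 on the log2 scale. In the annotation used here its span contains the bright locus MT1A (mean 6.14). Which of these transcripts the brighter probe reads was not tested. Of these 25 loci, 23 were highest on array 3 and 25 were lowest on array 1, against 31.3% and 39.8% of the 21360 loci. Because the spike-ins were higher on array 3 as well, the part of the array in this order was not tested.

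**Figure D1:**
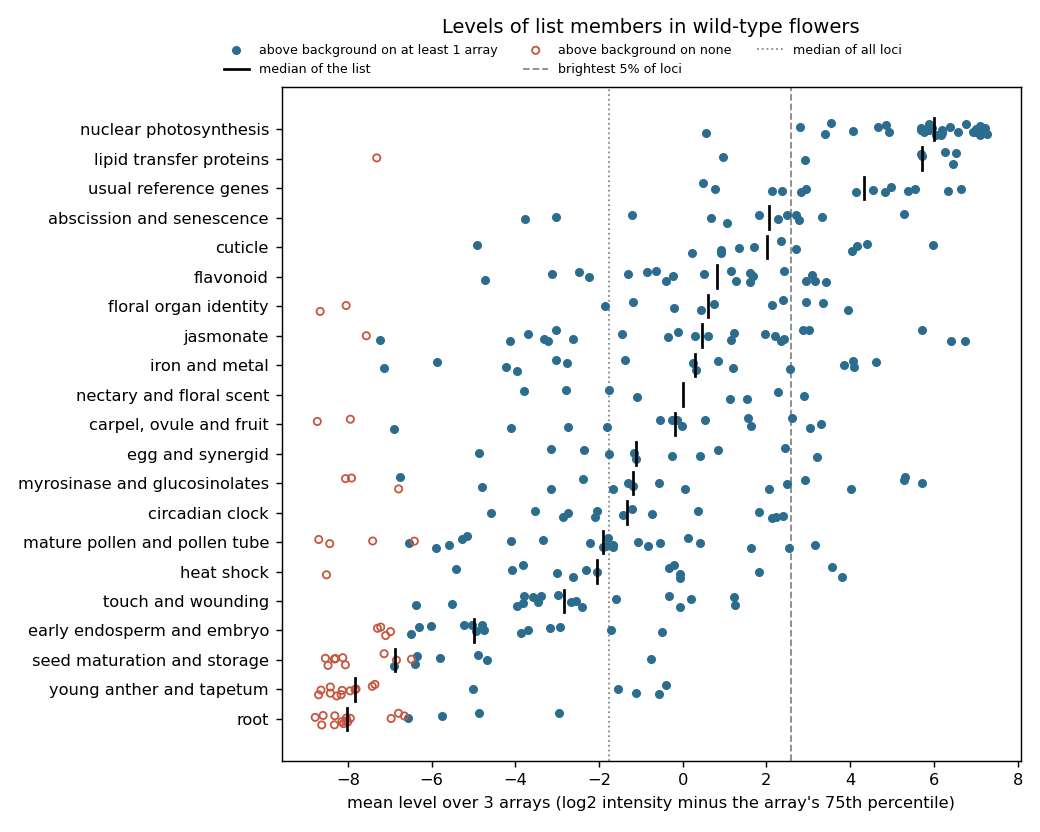
Mean level over the 3 wild-type arrays (x axis, log2 intensity relative to the 75th percentile) of each member of 21 gene lists (rows, ordered by median). Filled points were above background on at least 1 array, open points on none; photosynthesis genes sit at the right around their median of 6.0 and root genes at the left around -8.02.

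Genes of the flower's surface and defence were bright too. Lipid transfer proteins are small secreted proteins of the cell wall and cuticle. Of 8 such genes, 7 were detected, against 73.6% of all loci, and 6 were among the brightest 5.0%. LTP3 led at 6.32, 6.52 and 6.78, followed by LTP6 at a mean of 6.46, LTP1 at 6.27, LTP2 at 5.72 and LTP4 at 5.70. LTP12, known from the tapetum of young anthers, was not detected on any array.

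All 12 cuticle genes were detected, against 73.6% of all loci, and 5 were among the brightest 5.0%. CER1, which takes part in making wax alkanes, had levels of 5.86, 5.93 and 6.18. Its partner CER3 averaged 4.41, and KCS6, the condensing enzyme for very long wax chains, 4.16. The acyltransferases DCR and GPAT6, which make cutin of the epidermis, averaged 4.04 and 2.70. The lowest member, the wax regulator SHN1, was detected at -4.90 ± 0.25 (SD, n = 3).

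Among 19 genes of glucosinolates and their breakdown, 15 (78.9%) were detected, close to the 73.6% of all loci, and 3 were not above background on any array. The nitrile specifier NSP5, which directs the products of glucosinolate hydrolysis, led at 5.56, 5.57 and 6.02. The myrosinases TGG1 (5.46, 5.33 and 5.14) and TGG2 (5.29, 5.24 and 5.32), which split glucosinolates and are known from shoots, were next. The specifier modifiers ESM1 and ESP averaged 4.01 and 2.92. The myrosinases known from roots, TGG4 and TGG5, were not detected, and neither was the chain-elongation gene MAM3. CYP79F2, an enzyme of aliphatic glucosinolate synthesis, was above background on 1 array, with levels of -8.22, -4.01 and -8.03.

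All 20 flavonoid genes were detected, against 73.6% of all loci, and 4 were among the brightest. TT4, the chalcone synthase that opens the pathway, had levels of 3.31, 3.28 and 3.67. Flavonol synthase FLS1 averaged 3.15, the flavonol rhamnosyltransferase UGT78D1 3.10 and flavanone hydroxylase F3H 2.94. BAN, the anthocyanidin reductase of the young seed coat, averaged 2.43, just under the limit of the brightest 5.0%. At the other end, the laccase TT10, which acts late in the seed coat, averaged -4.73.

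Jasmonate genes spanned the whole scale. Of 24 members, 22 (91.7%) were detected, against 73.6% of all loci, and 5 were among the brightest. DAD1, a lipase known to start jasmonate synthesis in stamen filaments, was not detected. After VSP1 came VSP2 at 6.39, 6.38 and 6.44, and LOX2, a plastid lipoxygenase of the pathway, at 5.86, 5.51 and 5.81. The cyclase AOC4 and the repressor JAZ9 averaged 3.02 and 2.87. By contrast, AOC2, another cyclase copy, was above background on 1 array.

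Genes of abscission and senescence were detected in full, 12 of 12, against 73.6% of all loci. Of these, 4 were among the brightest 5.0%. SAG12, a cysteine protease used as a marker of senescence, had levels of 5.37, 5.08 and 5.43. SAG29, a sugar transporter of senescing leaves, averaged 3.32. NYC1, which acts in chlorophyll breakdown, averaged 2.78, the senescence regulator NAP 2.72 and SAG13 2.48. The abscission receptor gene HAE averaged 1.06, whereas the gene of its peptide ligand, IDA, averaged -3.02.

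Of 12 floral organ identity genes, 10 (83.3%) were detected on all 3 arrays, a share close to the 73.6% of all loci, so the count by itself says little about the tissue. PI and AP3, which together specify petals and stamens, stood at 3.58, 4.20 and 4.1 and at 1.86, 2.31 and 2.22. The cofactors of all floral organs, SEP1, SEP2 and SEP3, averaged 3.35, 2.95 and 2.40. LFY and UFO, which act in the young floral meristem, were not above background on any array.

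In the list of carpel, ovule and fruit genes, 13 of 16 (81.3%) were detected, close to the 73.6% of all loci. ALC, which helps form the layer where the fruit opens, led at 3.26, 3.30 and 3.32. STK, an ovule identity gene, averaged 3.04, and FUL, which is needed for valve growth, 2.60. The valve margin genes SHP2 and SHP1 averaged 1.62 and 1.57. Stigma and valve margin regulators HEC1 and IND were not above background on any array.

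Markers of mature pollen and of pollen tubes lay near the background of all loci: 20 of 25 (80.0%) were detected on all 3 arrays, against 73.6%, and their median level was -1.90, against -1.77. VGD1, a pectin methylesterase needed for tube growth through the style, had levels of 3.03, 3.06 and 3.35. The pollen arabinogalactan protein AGP6 averaged 2.53, the VGD1 relative VGDH1 1.62, AGP11 0.41 and the MADS-box gene AGL18 0.12. The gamete fusion genes HAP2 and GEX2, the male germline regulator DUO1 and the pollen tube regulator MYB120 were not detected. Other members were detected at low levels, among them the calcium channel CNGC18 (-4.11), the aquaporin TIP1;3 (-5.16), GEX1 (-5.28) and the pollen tube regulator MYB97 (-5.89).

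Genes of young anthers were mostly undetected. Of 17 genes of the tapetum and of pollen wall synthesis, 5 were detected and 12 (70.6%) were not above background on any array, against 21.7% of all loci. The undetected genes included the tapetal regulators DYT1, TDF1, AMS, MYB80 and MS1, the pollen wall genes MS2, ACOS5, CYP703A2 and ABCG26, the pollen coat genes GRP17 and GRP19, and EXL4. The detected members were DRL1 (-0.40), QRT3, a polygalacturonase that separates microspores (-0.56), CYP704B1 (-1.12), LAP6 (-1.55) and LAP5 (-5.01), of which all but QRT3 act in pollen wall synthesis.

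All 11 genes of the female gametes and synergids were detected, against 73.6% of all loci. The synergid attractant peptides LURE1.3, LURE1.5 and LURE1.1, which guide pollen tubes into the ovule, averaged 3.21, 2.45 and 0.84. LURE1.3 was at 2.92, 3.30 and 3.39. The egg cell genes EC1.1 to EC1.5, which encode small proteins secreted at sperm contact, lay between -3.14 and -0.25. MYB98, the synergid regulator upstream of the attractants, averaged -4.87. Every member was lowest on array 1, 11 of 11, against 39.8% of the 21360 loci. The median range of the list was 0.42, against 0.26 over all loci.

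Of 18 endosperm and embryo genes, 11 (61.1%) were detected, against 73.6% of all loci, 3 on 1 or 2 arrays and 4 (22.2%) on none, against 21.7%. Their median level was -4.98, against -1.77 over all loci. The Polycomb gene FIE led at -0.45, -0.56 and -0.49, followed by WOX9 at a mean of -1.71, the imprinted gene FWA at -2.93, AGL62, which holds the endosperm uncellularised, at -3.16 and the peptide gene CLE8 at -3.69. PHE1, ZOU, BBM and IKU2 were not above background on any array.

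Seed storage was barely seen. Of 16 maturation genes, 3 (18.8%) were detected on all arrays, against 73.6% of all loci, and 9 (56.3%) on none, against 21.7%. The exceptions were the oleosin OLEO4 at -0.94, -0.53 and -0.78, the maturation regulator FUS3 at -4.67 and the late embryogenesis gene EM6 at -4.89. The 2S albumins SESA1, SESA3, SESA4 and SESA5, the cruciferins CRU2 and CRU3, the oleosin OLEO1, EM1 and the regulator LEC2 were not detected.

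Root markers had the highest share of undetected members among the 21 lists. Of 18 members, 14 (77.8%) were not above background on any array, against 21.7% of all loci. They were the root hair genes EXPA7, EXPA18, RHD6, RSL2, RSL4 and LRX1, the root stem cell genes WOX5, PLT1 and PLT2, the transporters NRT2.1, PHT1;1 and HAK5, and the triterpene genes MRN1 and THAS1. The detected members were the iron transporter IRT1 at -2.91, -2.97 and -3.00, the aquaporin TIP2;3 at -4.88 and the glucosidase PYK10 at -5.76.

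**Figure D2:**
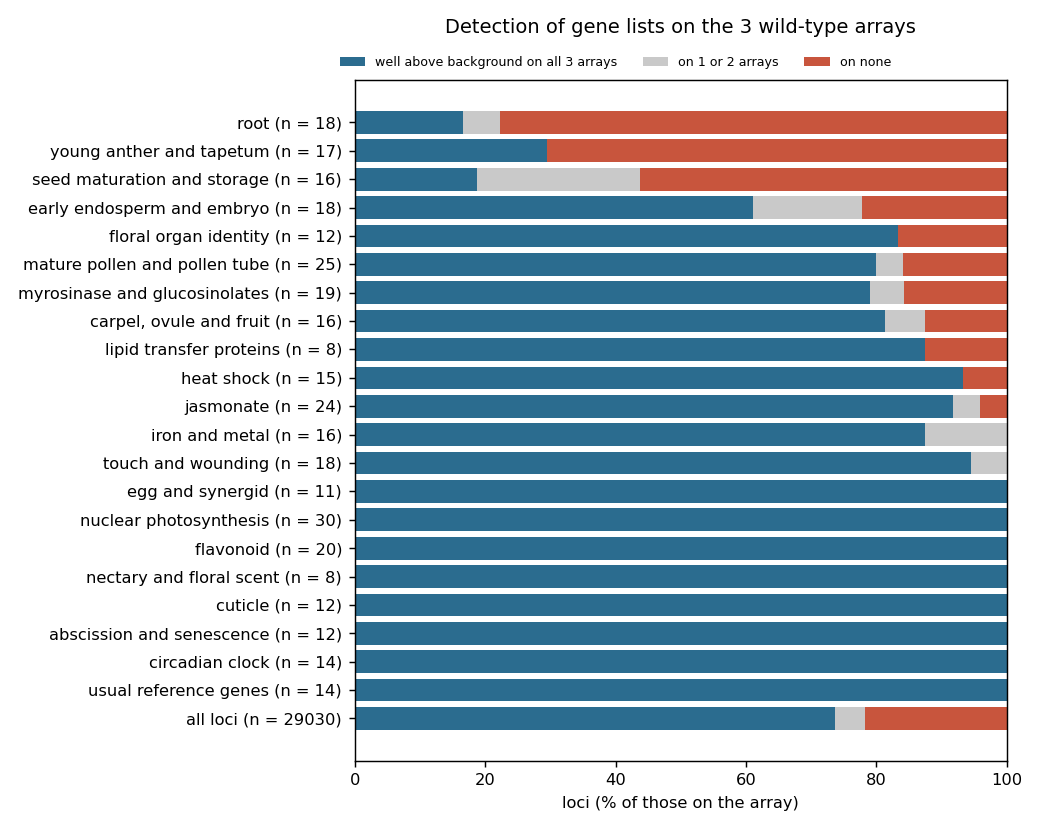
Share of the loci of each list (x axis, percent; n in brackets) that were well above background on all 3 wild-type arrays, on 1 or 2, or on none. Root, young anther and seed maturation lists have the longest undetected bars, and the bottom bar gives all 29030 loci, of which 21.7% were undetected.

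Other lists filled in the picture, beside the 73.6% of all loci that were detected and the 5.0% among the brightest. All 8 genes of nectaries and scent were detected, led by the jasmonate-dependent flower regulator MYB21 (2.44, 3.17 and 3.06) and the nectar sucrose transporter SWEET9 (1.90, 2.42 and 2.49). The nectary invertase CWINV4 averaged 1.54, the jasmonate methyltransferase JMT 1.13 and the sesquiterpene synthase TPS21 -1.10. All 14 clock genes were detected with 0 of them among the brightest, and LNK2 and LHY averaged 2.40 and 2.14. Of 15 heat shock genes, 14 were detected, led by HSP70 at a mean of 3.80 and MBF1C at 3.56, while the chloroplast chaperone HSP21 was not detected.

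Gene families grouped by the stem of their symbol, with 15 loci or more, also differed in detection, where 21.7% of all loci were undetected and 5.0% were among the brightest. Of 28 SCRL genes (small cysteine-rich proteins) 14 were undetected, and so were 14 of 34 LBD genes (regulators of lateral organ boundaries) and 16 of 40 CRK genes (receptor kinases). In contrast, all 24 RPS genes (small ribosomal subunit) were detected and 14 were among the brightest, as were 16 of 22 RPL genes of the large subunit. Of 19 PIP aquaporins 9 were among the brightest, and of 30 AGP genes (arabinogalactan proteins) 7. These families were grouped after the values were seen.

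The replicates agreed closely for most loci. Among the 21360 loci above background on all 3 arrays, the median range from the lowest to the highest array was 0.26 on the log2 scale, or 1.2-fold, and the median SD was 0.14. The median absolute difference was 0.13 between arrays 2 and 3, 0.17 between arrays 1 and 2, and 0.18 between arrays 1 and 3. The range exceeded 2-fold in 319 loci (1.49%). Most of these were dim: 221 of the 319 lay in the lowest quintile of levels, where 5.17% of loci exceeded 2-fold, and 6 in the highest quintile, where 0.14% did. Among the brightest 5.0% of loci AT3G08520, which has no symbol in the table used here, was the locus beyond 2-fold, at 3.61, 4.09 and 2.71. The usual reference genes had a median range of 0.23, near the 0.24 of all loci in the highest quintile. Their ranges ran from 0.08 for ACT7 to 0.52 for UBQ10, the brightest of them.

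**Figure D3:**
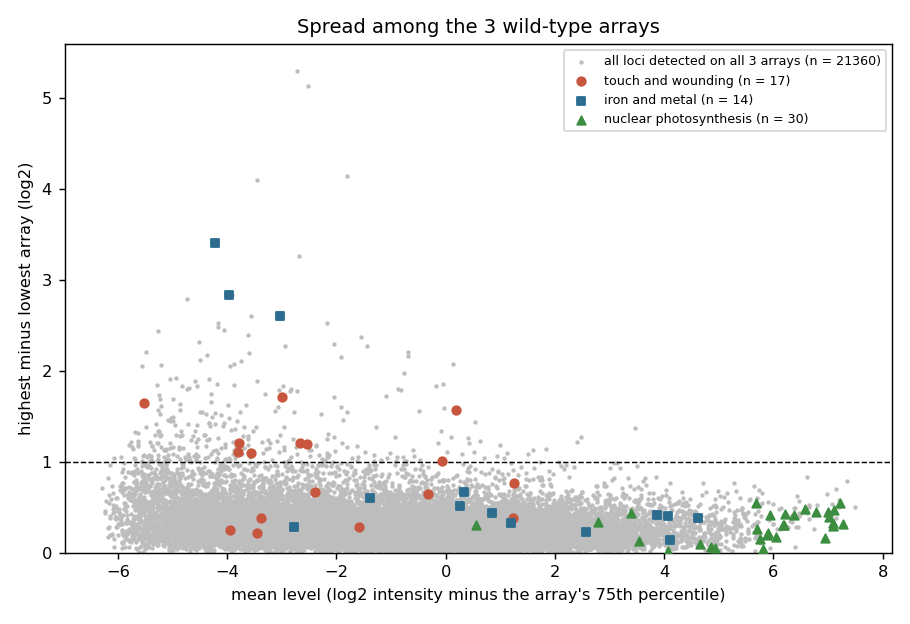
Range from the lowest to the highest wild-type array (y axis, log2) against mean level (x axis, log2 intensity minus the 75th percentile) for the 21360 loci above background on all 3 arrays. The dashed line marks 2-fold; 9 touch and wounding genes and 3 iron and metal genes lie above it and the 30 photosynthesis genes below it.

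Wide loci were mostly set by arrays 1 and 3. Array 1 stood farthest from the middle value in 153 of the 319 loci, being low in 112 and high in 41. Array 3 stood apart in 122, high in 75 and low in 47, and array 2 in 44, high in 35. Without array 1 the number of loci beyond 2-fold was 119, without array 2 193 and without array 3 167. The 319 loci were short, with a median gene length of 1260.5 bp, against 2304 bp over the loci detected on all 3 arrays. Of the detected pseudogenes 8.63% belonged to them, against 1.49% of all loci and 5.17% in the lowest quintile of levels.

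Early-response genes of touch and wounding were low on array 1. These genes encode calcium sensors and transcription factors whose transcripts rise within minutes of handling, cold or wounding in Arabidopsis. Of 17 members above background on all 3 arrays, 9 ranged over 2-fold, against 1.49% of all loci and 5.17% of loci in the lowest quintile of levels. The list was chosen with earlier results of these data known, so these shares are a description. The median range of the list was 1.01, and 14 of 17 members were lowest on array 1, against 39.8% of all loci. That order was not particular to these genes. It held for 11 of 11 egg and synergid, 7 of 7 lipid transfer and 10 of 13 carpel genes, but for 1 of 20 flavonoid genes. Relative to the mean of each touch and wounding gene, the median was -0.55 on array 1, 0.38 on array 2 and 0.11 on array 3. Over all 21360 loci it lay within 0.01 of 0. On array 1 it was -0.24 in the egg and synergid list and -0.21 in the lipid transfer list.

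The highest members were the calmodulin-like genes TCH2, at 0.86, 1.64 and 1.28, and TCH3, at 1.03, 1.41 and 1.26. The zinc finger gene ZAT12 stood at -0.86, 0.71 and 0.71, so that array 1 lay apart from the other arrays. TCH4, a cell wall xyloglucan enzyme, was at -0.62, 0.38 and 0.03, and the zinc finger gene ZAT10 at -0.64, 0.02 and -0.36. The widest members were the calcium sensor CML38, at -3.94, -2.23 and -2.80, and the cold regulator CBF2, at -6.53, -5.16 and -4.87. Not all members varied: WRKY33, WRKY53, ERF6 and CBF3 ranged by 0.29, 0.21, 0.25 and 0.38, and CYP81D11 was lowest on array 3. Without array 1, 0 of the 17 members ranged over 2-fold, without array 2 4, and without array 3 9.

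The widest loci with a symbol outside the lists included several that were low on array 1. ORA47, an ERF transcription factor that promotes jasmonate synthesis after wounding, stood at -6.12, -0.82 and -1.23, a range of 5.30 (39.4-fold). RRTF1, a redox-responsive ERF factor, was at -6.02, -1.91 and -2.46, a range of 4.11. CAF1a, an enzyme that shortens poly(A) tails, was at -3.51, -1.22 and -1.42, and ERF13 at -4.39, -2.11 and -2.33. All 4 were lowest on array 1, with arrays 2 and 3 close to each other. Among 23 detected genes with the symbol stem ERF, a family chosen after its values were seen, 5 (21.7%) ranged over 2-fold, against 1.49% of all loci and 5.17% in the lowest quintile of levels.

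The jasmonate repressors JAZ7 (-4.28, -2.53 and -3.13) and JAZ8 (-4.54, -3.15 and -3.37) were the members of the jasmonate list beyond 2-fold, again low on array 1. JMT was low there too, at 0.48, 1.58 and 1.33, and its range of 1.1 was the widest of the nectary and scent list. Over its 22 members above background on all arrays, JAZ7 and JAZ8 included, the median range of the jasmonate list was 0.20. JAZ5 ranged by 0.65, VSP2 by 0.06, JAZ9 by 0.05 and LOX3 by 0.02.

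Iron-responsive regulators went the other way. bHLH38, bHLH39 and BHLH100 encode a subgroup of related transcription factors that rise in iron-deficient Arabidopsis plants and promote iron uptake. bHLH39 stood at -2.55, -5.97 and -4.13, a range of 3.41 (10.7-fold). BHLH100 was at -2.50, -5.34 and -4.04, and bHLH38 at -1.73, -4.34 and -3.03. All 3 were highest on array 1, intermediate on array 3 and lowest on array 2, which was not the order of the touch genes. The list held 14 members above background on all arrays. These 3 (21.4%) were the ones beyond 2-fold, against 1.49% of all loci and 5.17% in the lowest quintile of levels. They stayed so when any 1 array was left out.

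Of the iron and metal list, 4 of 16 members were among the brightest 5.0% of loci. The copper-zinc superoxide dismutases CSD1 and CSD2 averaged 4.61 and 4.1, the copper chaperone CCH 4.07, and the ferritins FER1 and FER4 3.86 and 2.57. FER1, which stores iron, was at 4.01, 3.99 and 3.59, a range of 0.42, about the median range of the list (0.43). No member of the list was undetected on all arrays, against 21.7% of all loci. The zinc and iron transporter IRT2 was above background on 1 array, at -8.29, -4.83 and -8.26.

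The lists of abscission and senescence, clock, egg and synergid, and nectary and scent genes held 1 wide member each, JMT in the last. The abscission polygalacturonase ADPG2 was highest on array 1, at -2.92, -4.46 and -3.91, and so was the clock gene PRR5, at -2.02, -3.11 and -3.06. PRR5 was not beyond 2-fold with normexp or with the deposited values. ELF4, another clock gene of the evening, ranged by 0.75 with its highest value on array 1, at -3.13. The central cell regulator AGL61 was highest on array 3, at -0.08, 0.14 and 1.18. In the lists of floral organ identity, carpel, pollen, flavonoid, cuticle, heat shock and photosynthesis genes, no member that was above background on all arrays ranged over 2-fold. As only 1.49% of all loci did, this absence says little about these lists.

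**Figure D4:**
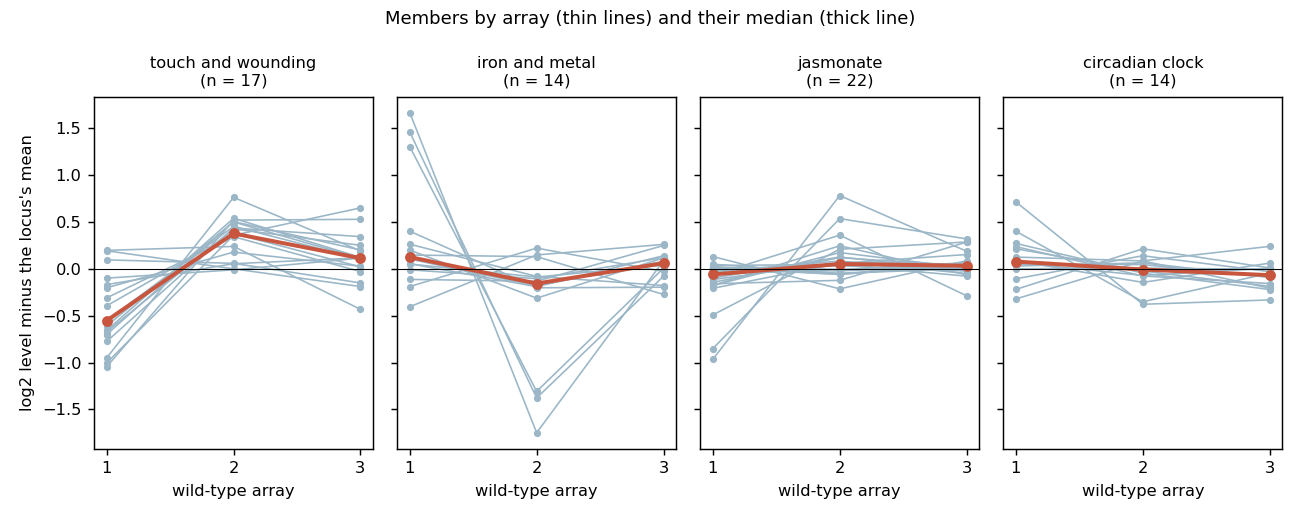
Log2 level minus the mean of the locus (y axis) on wild-type arrays 1, 2 and 3 (x axis) for members above background on all 3 arrays in 4 lists; thin lines are loci and the thick line is the median of the list. Most touch and wounding genes lie below 0 on array 1, where their median is -0.55, and 3 iron and metal genes fall steeply on array 2.

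Of the 25 widest loci 10 had a symbol, and 3 of those have not been described yet. SADHU3-1, a retroelement locus, stood at -4.60, -4.12 and -1.99, and was set apart by array 3. DTA2, a target of the regulator AGL15, was at -2.62, -4.73 and -5.14, with array 1 high. SAUR27, of a family of auxin-responsive genes, was at -5.53, -3.21 and -4.83, with array 2 high. Among the 15 without a symbol, the pseudogene AT4G06477 was at -5.62, -0.48 and -1.44, and the long noncoding RNA AT3G05905 at -0.41, -0.47 and -4.56.

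Loci that stood apart on array 3 were often extreme in sample 3 of the other genotype as well. These loci were chosen by their wild-type values, so the sizes in wild type and atnaod are not compared on equal terms. Of the 75 loci high on wild-type array 3, 69 (92.0%) were highest in sample 3 among the atnaod arrays, against 36.5% of all loci. Of the 47 low on it, 37 (78.7%) were lowest in atnaod sample 3, against 36.3%. Sample 3 exceeded the mean of samples 1 and 2 by a median of 1.13 in wild type and 0.96 in atnaod over the 75 loci. Over the 47 low loci the median difference was -1.06 in wild type and -0.55 in atnaod, where single loci reached 0.49. Of all 319 loci beyond 2-fold in wild type, 99 (31.0%) were beyond 2-fold among the atnaod arrays, against 3.28% of all loci. As 221 of the 319 lay in the lowest quintile of levels, this share of all loci is not matched for level, and a matched one was not computed. For array 1 the match was weaker: of 112 loci low on wild-type array 1, 44 (39.3%) were lowest in atnaod sample 1, against 32.3% of all loci, and of 41 high ones 17 (41.5%) were highest, against 41.4%. AGL61 was at -0.65, -0.07 and 0.10 in atnaod samples 1 to 3, highest in sample 3 there too. The bright locus AT3G08520, low on wild-type array 3, was also lowest in atnaod sample 3, at 3.54, 3.54 and 2.78.

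**Figure D5:**
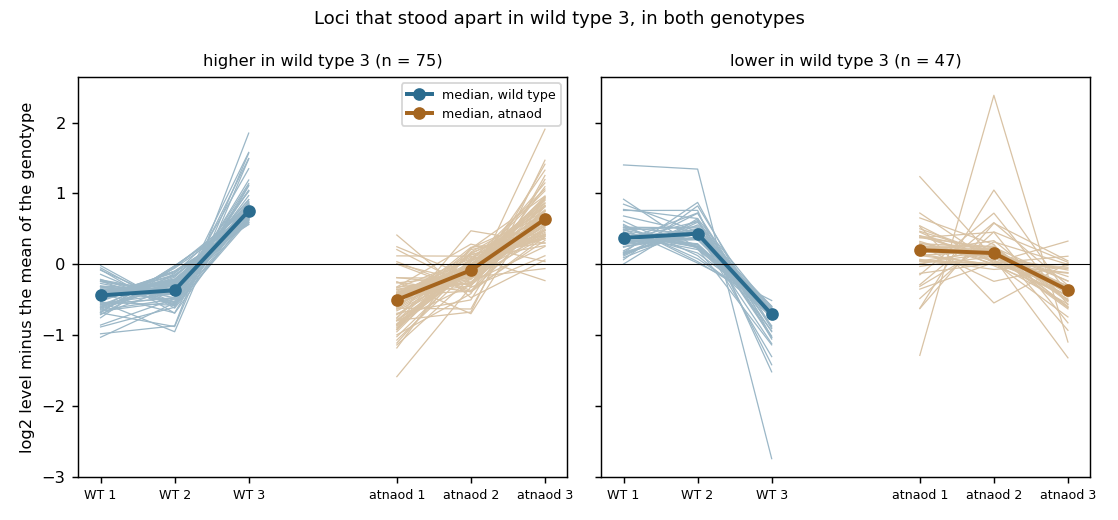
Log2 level minus the mean of the genotype (y axis) on each array of wild type (WT) and atnaod (x axis) for the loci beyond 2-fold that were high (left, n = 75) or low (right, n = 47) on wild-type array 3. Thin lines are loci and thick lines medians; in both genotypes the median of sample 3 lies on the same side of 0.

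Slide 2, which carried sample 3 of both genotypes, was compared with slide 1 over all 6 arrays with genotype as a term. With limma and Benjamini-Hochberg adjustment over 21360 loci, 3 loci were higher on slide 2 (0.014%) and 0 were lower (0.0%), and 3002 loci had an unadjusted p under 0.05. The called loci were AT1G42650, a pseudogene, AT2G43880, a protein-coding gene, and AT2G14115, a long noncoding RNA, none of which has a symbol. AT1G42650 stood at -2.06 in wild type 3 and -2.90 in atnaod 3 on slide 2, against -4.89 and -4.78 in wild type 1 and 2 and -5.16 and -5.05 in atnaod 1 and 2 on slide 1. The difference was 2.49 (SE 0.14, limma adjusted p = 0.0227). For AT2G43880 it was 2.06 (SE 0.14, limma adjusted p = 0.0285) and for AT2G14115 2.02 (SE 0.14, limma adjusted p = 0.0285). All 3 were higher in 2 of 2 samples of slide 2 than in any of the 4 samples of slide 1. The count depended on the background correction: it was 2106 with the deposited values and 1156 with normexp, mostly higher on slide 2 (1907 and 1027). All 3 calls were lost without wild type 1, 2 or 3, with the mean over probes and without a filter on dim probes, where 0 loci were called.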

How the data were processed

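Total RNA of 3 wild-type and 3 atnaod flower samples was read on 1-colour Agilent arrays, 1 sample per array. Per the labels and file headers, the spot intensity was extracted with Agilent Feature Extraction (version 10.5 per the submitters' processing notes), which subtracted background without normalizing between arrays. The scanner flags (the deposited files' other columns) mark spots above background and outliers. Each array's column of the deposited value table, also intensity, was found to equal its median spot signals scaled by a factor of its own.

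From these files, log2 processed intensity minus the array's 75th percentile was taken, outlier spots were left out (35, 22 and 25 in wild type), and spots of a probe were averaged. Of 43603 probes, 38413 carried a locus code; 28595 of 29030 loci matched RefSeq (TAIR10.1), which gave symbols to 10499. Genomic positions are not reported because the array's build is not given in the sources used here. A locus was detected where 1 of its probes was well above background on all 3 arrays; ranges used the brightest probe. Loci are named by rank (the 25 highest levels and the 25 widest ranges), and per list by level, by lack of detection and by range; others were named after their values were seen. Members, the 21 gene lists and tests were chosen with earlier results of these data known.

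The slide comparison used lmFit and eBayes of limma (version 3.58.1, under R version 4.3.3), two-sided, with genotype as a term and adjusted p under 0.05. Tested on simulated data with 200 of 21360 loci shifted, this fit recovered 74.0% of shifts of 1 and 98.0% of shifts of 2 (log2), with 10 false calls. On the arrays, the 3 called loci differed by 2.02 to 2.49. AT4G08105 (2.17) and SADHU3-1 (2.01) were not called (limma adjusted p = 0.064 for both), so the recovery holds for the simulated data only. Alternatives were background correction (normexp, offset 50), normalization, filter, flag, probe choice, prior, a replicate block and leaving out arrays. Normexp used the median spot signal, and 5 spots of wild type 1 with a local background over 10 times the median took that median, a choice made after seeing the data. Samples that share a number are not stated to share plants or a day, and number 3 is also slide 2.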

Additional observations from a re-analysis of the deposited data

Results flagged for a closer look

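The locus ranking left out 5146 transcripts of the array that carry no locus code. Of these, 2231 (43.4%) were well above background on all 3 wild-type arrays, against 73.6% of the loci, and 2392 (46.5%) on none, against 21.7%. A level within the range of the brightest 5.0% of loci was reached by 150. Among negative control spots 4, 3 and 0 of 153 were well above background on the 3 arrays. The signal was less common than among the loci, and is flagged because it lies above the negative controls in data that no comparison used. No gene names were assigned to these transcripts.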

How the results depend on the processing

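Detection depended on the flag of the scanner software: with the looser flag (positive and significant), 3350 loci were undetected instead of 6295. Leaving out 1 array gave 6381 to 6848 undetected loci and 21404 to 21811 detected ones. Of the 319 loci beyond 2-fold, quantile normalization kept 283, median centring 292, normexp 184 and the deposited values 209. Without a filter on dim probes 2220 loci exceeded 2-fold, and 21 did among loci at a level of 0 or above. Leaving out 1 array gave 119 to 193 loci. The number of touch and wounding genes beyond 2-fold, 9 in the report, was 7 with normexp, 8 with quantile normalization, median centring and the deposited values, 9 with the mean over probes, 10 without a filter and 1 among loci at a level of 0 or above. Averaging over the probes of a locus kept 62 of the 100 brightest loci, while leaving out 1 array kept 97 to 98. The slide comparison called 1156 loci with normexp, 2106 with the deposited values, 11 with a trended and robust prior, 0 without a filter and 0 with the mean over probes. Wild-type arrays alone called 218, with 1 residual degree of freedom. Leaving out 1 array called 0 to 31: 0 without wild type 1, 2 or 3, 31 without atnaod 2 and 1 without atnaod 3. With the replicate number as a random block it called 17 (estimated correlation -0.07); number 3 is also slide 2, so this block overlaps the slide. The causes of these changes were not tested.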
